A study of Homo sapiens with 6 samples.

Results

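CYP2C8, CYP2C18 and CYP2C19 are paralogous genes of the CYP2C cytochrome P450 cluster on the long arm of chromosome 10. They are 3 of the 79172 gene names in the counts table. They were selected by name with their fold changes known, from the contrast of HK1-overexpressing with control cells, so their values in that contrast are given as a description without a test. The cells were Huh7, an established line from a human hepatocellular carcinoma, profiled by RNA-seq. The labels name 3 control libraries and 3 libraries overexpressing HK1, the gene of hexokinase 1, which phosphorylates glucose. All 6 libraries share the parental line, and whether the overexpressing cells were a clone or a pool, how HK1 was delivered and what the controls received are not given in the sources used here. Nothing in the labels says that the replicates came from separate cultures, so p-values measure only the spread between these libraries, which may be technical.

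CYP2C enzymes are haem proteins of the endoplasmic reticulum that oxidise drugs and fatty acids with electrons passed on by a reductase. In liver, their genes are transcribed in hepatocytes under nuclear receptors that sense foreign compounds and under hepatocyte transcription factors. CYP2C8 oxidises paclitaxel, retinoic acid and arachidonic acid, CYP2C19 activates clopidogrel and clears omeprazole, and CYP2C18 is known for mRNA in liver and epithelia with little protein.

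Library totals ran from 16771835 to 20823072 counts. HK1, the targeted gene, had 13, 15 and 13 raw counts in control replicates 1, 2 and 3 and 9723, 10602 and 11101 in HK1-overexpressing replicates 1, 2 and 3, as the labels state. Among 12 hepatocyte markers every gene was tested, and their summed level lay between 14563 and 15384 CPM in controls and between 11198 and 11574 CPM in overexpressing cells. CPM is the count scaled to a common library size, here by TMM, which takes its factors from genes that vary least. Of 16 markers of blood, endothelial, mesenchymal and keratinocyte cells, 3 (CDH5, KRT5 and KRT14) were at 0 counts throughout, where 3 counts, the limit that a 0 leaves, would be 0.144 to 0.179 CPM depending on the library. The summed level of the 16 was 21.0 to 22.5 CPM in controls and 26.8 to 29.1 CPM in overexpressing cells, mostly from COL1A2, a collagen gene, which rose (log2 0.58, edgeR adjusted p = 0.0010), while CD14 (log2 -0.07) and PECAM1 (log2 -0.02) were not called. The part of these markers in the CYP2C values was not tested.

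The starts of CYP2C8 and CYP2C19 are shown because these related genes differed so unequally between the groups in raw counts, as given further on. Each run is the 250 bases before the annotated start, read from RefSeq (GRCh38.p14) on the strand of the gene, and 2 of the 3 genes matched that table. CYP2C8 is chr10:95069498-95069747 on the minus strand and CYP2C19 is chr10:94762431-94762680 on the plus strand. Capitals mark matches to CAAAGTCC, the core of a binding motif of HNF4, and to TGTTTAC, a motif of FOXA factors, on either strand.
CYP2C8: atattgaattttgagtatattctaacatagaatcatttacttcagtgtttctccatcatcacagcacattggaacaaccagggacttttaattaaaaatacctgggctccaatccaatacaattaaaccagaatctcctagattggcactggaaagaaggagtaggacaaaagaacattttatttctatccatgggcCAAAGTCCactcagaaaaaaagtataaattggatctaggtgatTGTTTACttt
CYP2C19: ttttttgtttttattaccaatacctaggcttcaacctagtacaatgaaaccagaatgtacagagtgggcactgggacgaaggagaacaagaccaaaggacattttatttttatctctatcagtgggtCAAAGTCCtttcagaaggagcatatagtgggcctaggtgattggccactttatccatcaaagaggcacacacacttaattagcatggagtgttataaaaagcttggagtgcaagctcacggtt

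Both windows held 1 match to CAAAGTCC, beginning 53 bases before the start of CYP2C8 and 123 bases before that of CYP2C19. That core was in 1.02% of 35116 promoters of the same length. TGTTTAC matched in the window of CYP2C8, beginning 10 bases before the start, and not in that of CYP2C19, and it was in 2.98% of promoters. The letters AGATAA, a motif of GATA-binding factors present in 9.17% of promoters, matched once in CYP2C19 and not in CYP2C8. The same held for TTNCNNAA, a motif of C/EBP factors present in 33.2%. TATAAA (10.7%) matched in both. Direct repeats of AGNTCA spaced by 4 bases, a form bound by xenobiotic receptors (0.0940%), and the E-box CACGTG (6.34%) matched in neither. No search motif overlapped another in these windows. In a local alignment of the 300-base RefSeq windows, which run 50 bases past each start, 212 bases aligned, of which 173 (81.6%) were identical. The aligned stretch began at position -165 from the start of CYP2C8 and at position -243 from that of CYP2C19, so the annotated starts are not at matching places in the related sequence. These are matches of letters, and no binding was measured.

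CYP2C8 was far higher in HK1-overexpressing cells. It lies on the minus strand of chromosome 10 from 95036772 to 95069497 (hg38), with 2509 exon bases in 9 blocks. Fragments assigned to it numbered 8, 8 and 9 in control replicates 1, 2 and 3, and 101, 85 and 95 in overexpressing replicates 1, 2 and 3. The control counts were near the limit of detection. Every overexpressing library lay above every control library, and the 3 libraries of each group lay close together. This is 0.473 ± 0.0722 CPM without and 4.57 ± 0.504 CPM with HK1 overexpression (SD, n = 3 each), and the log2 fold change from the edgeR fit was 3.26 with a standard error of 0.219. From the summed counts, 25 in controls (exact 95% Poisson interval 16.2 to 36.9) and 281 in overexpressing cells (249.1 to 315.8), the ratio of levels was 9.72, with an exact interval of 6.45 to 15.3. These intervals cover counting error only. Any copies made by PCR among the counted fragments are not separate molecules and would make the intervals too narrow. The SD of the raw counts was 0.577 in controls and 8.08 in overexpressing cells, each below the 2.89 and 9.68 that counting alone gives at those means. In bulk RNA, more cells that express a gene and more RNA per cell cannot be told apart.

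CYP2C18 was the most abundant of the 3 genes in controls, at nearly the same level in both groups. It lies on the plus strand of chromosome 10 from 94683729 to 94736190, with 2310 exon bases. Control libraries held 56, 58 and 54 raw counts, and HK1-overexpressing ones 61, 76 and 61. The raw counts do not overlap, but after scaling for depth the groups overlap, with 2.82, 3.41 and 3.28 CPM against 3.08, 3.66 and 2.90 CPM in the same order. Mean levels were 3.17 ± 0.310 and 3.21 ± 0.401 CPM (SD, n = 3 each), a log2 fold change of 0.02 with a standard error of 0.164. From the summed counts, the ratio of levels after scaling for depth was 1.02, with an exact 95% interval of 0.826 to 1.26. Counting error alone leaves any ratio within those bounds open. They are not the smallest change that could be detected.

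CYP2C19 was near the limit of detection in every library. It lies on the plus strand of chromosome 10 from 94762681 to 94855547, between CYP2C18 and CYP2C8, with 6263 exon bases. Control libraries held 9, 7 and 12 raw counts and HK1-overexpressing ones 10, 12 and 8, so the groups overlap throughout. This is 0.531 ± 0.173 CPM without and 0.488 ± 0.100 CPM with HK1 overexpression (SD, n = 3 each), with a log2 fold change of -0.11 and a standard error of 0.377. From the sums, 28 and 30 counts, the ratio of levels after scaling for depth was 0.927, with an exact 95% interval of 0.535 to 1.61. Counting error alone leaves a fall or a rise inside those bounds open.

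**Figure D1:**
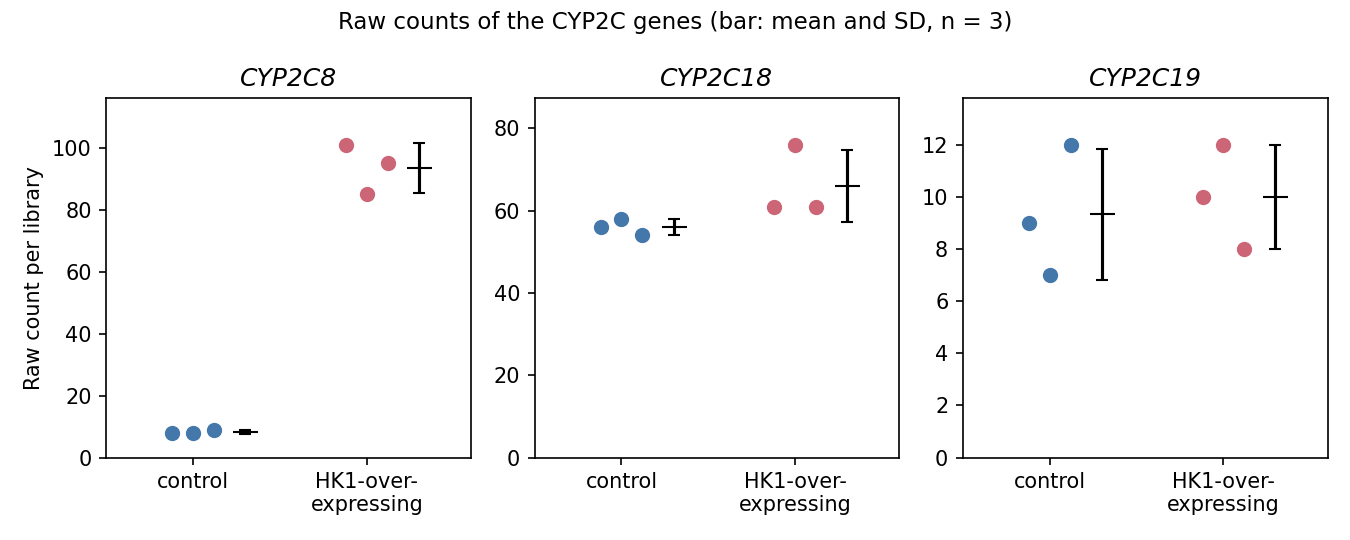
Raw counts per library (y axis, linear from 0, scaled separately for each gene) of CYP2C8, CYP2C18 and CYP2C19 in 3 control (blue) and 3 HK1-overexpressing (red) libraries, with the mean and SD beside each group in black. CYP2C8 goes from 8 to 9 counts in controls to 85 to 101 counts in overexpressing libraries, while CYP2C19 stays between 7 and 12 in all 6.

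All 3 members passed the filter on low counts and were among the 16734 genes tested. CYP2C8, at 8, 8 and 9 counts in controls, passed it through its overexpressing libraries. Across all tested genes, 3.87% of genes were called higher and 4.15% lower, 8.02% in all, with edgeR (quasi-likelihood, Benjamini-Hochberg adjusted p below 0.05). With library totals in place of TMM, the 648 higher and 694 lower calls became 907 and 462. The count was 2257 after dropping control replicate 1, 809 after dropping control replicate 3, and 554, 536 and 598 after dropping HK1-overexpressing replicates 1, 2 and 3 in turn. Groups did not overlap in CPM for 1 of the 3 members, CYP2C8, and for 27.8% of all tested genes. A log2 fold change of at least 3 was found for 10 genes (0.0598%), CYP2C8 among them. By log2 fold change from the top, CYP2C8 stood at rank 5, with HK1 at rank 1, CYP2C18 at rank 7722 and CYP2C19 at rank 12598. Of 3514 tested genes with a mean of 1 to 5 CPM, the band that holds CYP2C8 and CYP2C18, 3 had a log2 fold change of at least 3 and 4.47% were called. Since the members were chosen on this contrast, nothing is read from these positions.

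**Figure D2:**
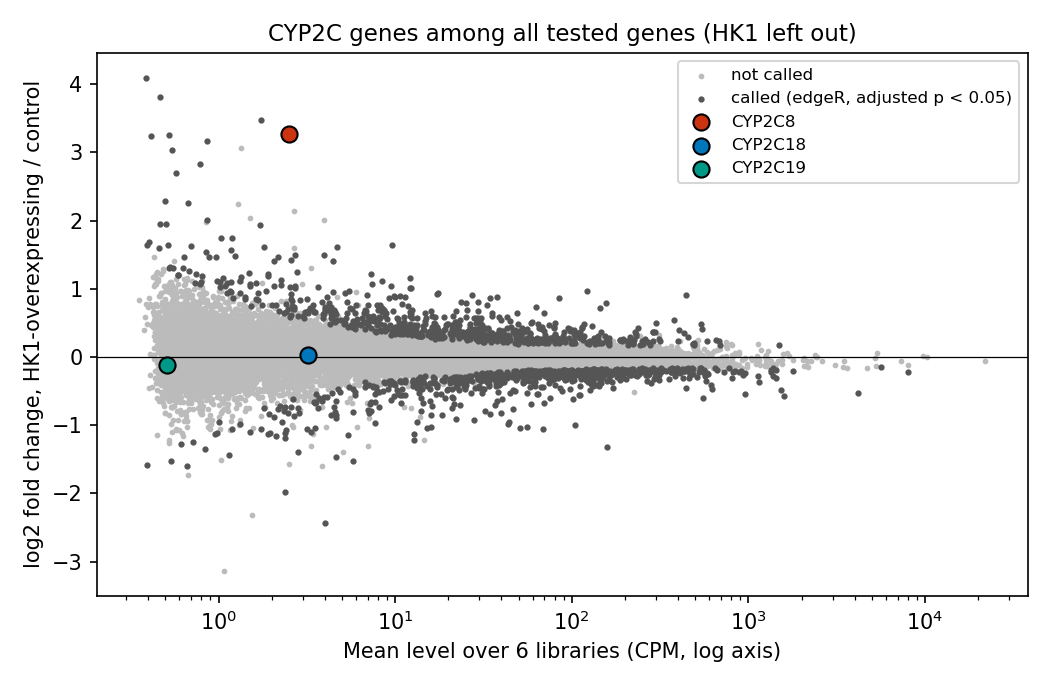
Each point is a tested gene, by its mean level over the 6 libraries (x axis, CPM, log scale) and its log2 fold change of HK1-overexpressing over control (y axis), with called genes in dark grey and HK1 left out. CYP2C8 lies at 3.26, well above the bulk of genes at its level, and CYP2C18 and CYP2C19 lie at 0.02 and -0.11.

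CYP2C8 made up a larger part of the summed level of the 3 genes in each overexpressing library than in any control. To compare genes, CPM was divided by the kilobases of exon that no other gene name covers. On that scale CYP2C18 led in controls at 2.30 ± 0.224 CPM per kb, followed by CYP2C8 at 0.189 ± 0.0288 and CYP2C19 at 0.123 ± 0.0400 (SD, n = 3 each). CYP2C8 was above CYP2C19 within each control library, at 0.161 and 0.105, 0.187 and 0.0952, and 0.218 and 0.169 CPM per kb. Across control libraries their ranges overlap on this scale, but not over all exon bases, where CYP2C8 ran from 0.161 to 0.218 and CYP2C19 from 0.0657 to 0.117 CPM per kb. In overexpressing cells CYP2C18 was at 2.33 ± 0.291, CYP2C8 at 1.82 ± 0.201 and CYP2C19 at 0.113 ± 0.0232 CPM per kb. The lowest CYP2C18 library (2.10) was just above the highest CYP2C8 library (2.03). The order of CYP2C18 and CYP2C8 turns with the length used: over all exon bases, CYP2C18 was at 1.39 and CYP2C8 at 1.82 CPM per kb in overexpressing cells. That sum leaves out CYP2C genes other than these 3, so its parts are not shares of all CYP2C mRNA. The share of CYP2C8 in it was 6.95%, 6.80% and 7.88% in controls and 46.4%, 36.9% and 45.1% in overexpressing cells.

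Counting across related and overlapping transcripts bears on these levels unequally. Coding sequences of 1473 bases were found for each gene in GENCODE release 29, and CYP2C8 was identical to CYP2C18 at 84.9% and to CYP2C19 at 84.8% of aligned bases, while CYP2C18 and CYP2C19 were identical at 87.5%. Of the 50-base windows in CYP2C8 transcripts, 1.85% occurred unchanged in transcripts of other genes. The share was 36.6% for CYP2C18 and 38.2% for CYP2C19. Other genes here include transcripts that overlap these 2 genes, so the shares do not measure likeness to paralogs alone. They are not separate from the overlap given next. No exon base of CYP2C8 lay under another gene name on either strand. For CYP2C18, 931 bases (40.3%) and for CYP2C19, 1942 bases (31.0%) were shared, with a transcript from 94688154 to 94853073 that spans both genes (ENSG00000276490) and, for CYP2C19, with MTND4P19. By the recorded settings, fragments in bases shared by 2 gene names are not assigned, so CYP2C18 and CYP2C19 may be undercounted. ENSG00000276490, with 2395 exon bases, had 1, 0 and 1 counts in controls and 0 in each overexpressing library. Fragments in the bases it shares with CYP2C18 and CYP2C19 are not assigned to it either. Its counts therefore set no limit on its level.

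Among tested genes around the cluster, log2 changes lay between -0.14 and 0.74. Of 55 other gene names within 1 Mb of the span of the members, 15 were tested, 2 rose and 0 fell by the edgeR test, which is 13.3% called beside 8.02% of all genes, with a median log2 change of 0.07 beside 0.01 over all tested genes. Without any 1 HK1-overexpressing replicate both calls were lost. TCTN3, of the ciliary transition zone, rose from 53.5 ± 1.54 to 64.0 ± 1.83 CPM (SD, n = 3 each; log2 0.26, edgeR adjusted p = 0.0132, and 0.0607 without control replicate 3). NOC3L, a ribosome biogenesis factor, rose from 59.0 ± 3.21 to 69.2 ± 2.20 CPM (log2 0.23, edgeR adjusted p = 0.0307, and 0.0507 with the replicate block). ENSG00000231829, a minus-strand transcript like CYP2C8 that lies from 95109136 to 95111642, 39.6 kb upstream of the CYP2C8 start, was too low for the filter. It had 0, 1 and 1 counts in controls and 8, 9 and 14 in overexpressing cells. The groups do not overlap, which also held in CPM for 27.8% of all tested genes. From its summed counts, 2 and 31, the ratio of levels after scaling for depth was 13.4, with an exact 95% interval of 3.41 to 115.6. Without the filter it was called (edgeR adjusted p = 2.22e-04), as were NOC3L, TCTN3 and SLC35G1, the 4 flanking calls of that fit. Adjusted p of that fit are not comparable with those of the main fit. They were far lower for some genes (AHSG, 8.1e-107 against 1.38e-09) and higher for others (HELLS, 0.686 against 0.538). ENSG00000231829 was singled out after its values were seen. Nearest to CYP2C8 among tested genes on the side of its 3′ end, the unnamed transcript ENSG00000303732 had 11, 10 and 13 counts in controls and 23, 30 and 13 in overexpressing cells, with 1 overexpressing library at the level of the controls (log2 0.74, SE 0.345, edgeR adjusted p = 0.222). PDLIM1, an actin-associated protein gene and the nearest tested gene on the other side, was at 186.9 ± 13.0 and 191.6 ± 2.38 CPM (log2 0.04, edgeR adjusted p = 0.756). HELLS, a chromatin remodeller beyond CYP2C18, was at 80.6 ± 6.71 and 76.3 ± 3.27 CPM (log2 -0.08, edgeR adjusted p = 0.538).

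Further flanking genes were uncalled too. On the CYP2C18 side these were TBC1D12 (log2 0.19), PLCE1 (log2 -0.05), SLC35G1 (log2 0.25) and FRA10AC1 (log2 0.07). On the CYP2C8 side they were ALDH18A1 (log2 -0.14), ENTPD1 (log2 -0.04), ENTPD1-AS1 (log2 -0.09) and CCNJ (log2 -0.03). SLC35G1 was called without control replicate 1 and under other scalings and filters, and TBC1D12 without control replicate 3 (their lowest adjusted p were 0.0234 and 0.0453, and their highest 0.261 and 0.376). ENTPD1-AS1 overlaps ENTPD1 on the opposite strand, and by the recorded settings the counting did not use strand. Over all of chromosome 10, which also carries HK1, 664 genes were tested, 55 rose, HK1 among them, and 13 fell. This is 10.2% called beside 8.02% of all genes, with a median log2 change of 0.07. Over all tested genes 648 rose and 694 fell, so calls on chromosome 10 leaned more to higher. With library totals 81 rose and 8 fell on chromosome 10, beside 907 and 462 over all tested genes. The cause of this lean was not tested. The calls on chromosome 10 numbered 114 after dropping control replicate 1, 34 after dropping control replicate 3, and 21, 18 and 28 after dropping HK1-overexpressing replicates 1, 2 and 3 in turn.

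**Figure D3:**
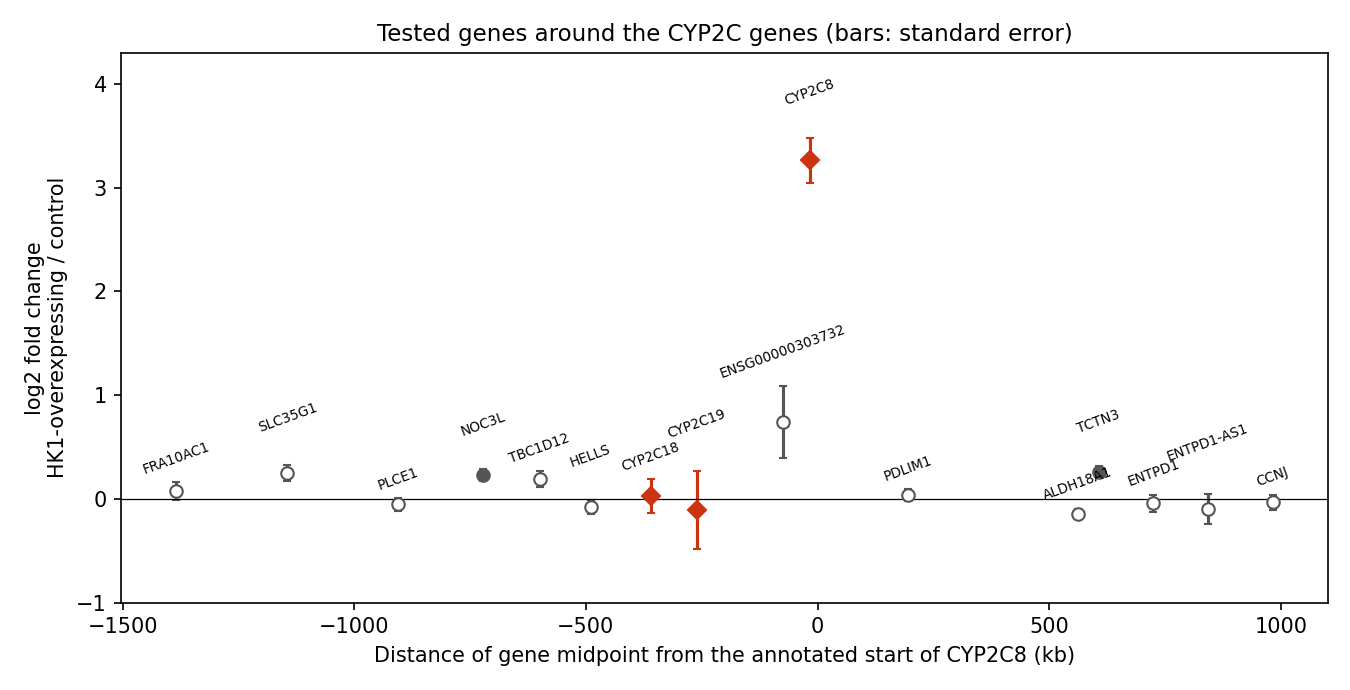
Log2 fold change of HK1-overexpressing over control with its standard error (y axis) against the distance of each gene's midpoint from the annotated start of CYP2C8 (x axis, kb), for the 3 CYP2C genes (red diamonds, no test) and the named tested genes within 1 Mb of them (circles, filled where called). CYP2C8 is at 3.26, and the next highest plotted value is 0.74. Genes below the filter, ENSG00000231829 included, are not plotted.

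Regulators of CYP2C transcription were called in both directions, with log2 changes from -0.50 to 0.39. Of 22 listed, 19 were tested, 2 rose and 4 fell (31.6% called, against 8.02% of all genes), with a median log2 change of -0.13. The count was 0 when any 1 HK1-overexpressing library was dropped, 1 when control replicate 3 was, 3 with library totals and 3 with DESeq2. Of the xenobiotic receptors, NR1I2 (PXR) had 2, 4 and 4 counts in controls and 5, 5 and 3 in overexpressing cells and was too low to test. NR1I3 (CAR) had 20, 12 and 21 and 15, 11 and 22 counts, groups that overlap. RXRA, their shared partner, was at 152.0 ± 4.64 and 135.2 ± 4.29 CPM (log2 -0.17, edgeR adjusted p = 0.0559). HNF4A, the main hepatocyte activator of CYP2C genes, averaged 155.3 ± 4.85 CPM without and 156.6 ± 3.88 CPM with HK1 overexpression (log2 0.01, edgeR adjusted p = 0.924), and NR3C1, the glucocorticoid receptor, was at 48.8 ± 6.31 and 48.2 ± 1.91 CPM. NR1I2, NR1I3, RXRA, HNF4A and NR3C1 fall outside the naming rule and were chosen for their role after their values were seen.

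FOXA2, a pioneer factor, fell from 75.3 ± 2.67 to 63.5 ± 1.41 CPM (SD, n = 3 each; log2 -0.25, edgeR adjusted p = 0.0141), and this was lost without each HK1-overexpressing replicate in turn (highest adjusted p = 0.107). Its paralog FOXA1 fell from 54.3 ± 4.38 to 45.8 ± 0.909 CPM (log2 -0.25, edgeR adjusted p = 0.0358). The call of FOXA1 was lost with library totals, with the replicate block and without any 1 library other than control replicate 2 (highest adjusted p = 0.180). CEBPB, a stress-responsive C/EBP factor, rose from 35.4 ± 2.36 to 43.5 ± 0.878 CPM (log2 0.30, edgeR adjusted p = 0.0132), which was lost when control replicate 3 or any 1 HK1-overexpressing library was dropped (highest adjusted p = 0.0779). FOXA3 (log2 -0.32) and PPARGC1A (log2 0.39) were called with edgeR adjusted p of 0.0450 and 0.0489, and were named outside the rule after their values were seen.

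The redox partners and haem supply on which P450 enzymes depend were mostly uncalled. Of 18 genes, all tested, 2 rose and 1 fell (16.7% called, above the 8.02% of all genes), with a median log2 change of -0.03. Without any 1 HK1-overexpressing replicate, 1 call was left. POR, the reductase that passes electrons to microsomal P450 enzymes, averaged 168.9 ± 7.33 CPM without and 156.5 ± 3.13 CPM with HK1 overexpression (log2 -0.11, edgeR adjusted p = 0.220). ALAS1, the first enzyme of haem synthesis, was at 111.5 ± 4.13 and 116.5 ± 3.66 CPM (log2 0.06, edgeR adjusted p = 0.541). HMOX1, which breaks haem down, rose from 87.5 ± 3.05 to 106.5 ± 3.45 CPM (log2 0.28, edgeR adjusted p = 0.00462). BLVRB, which acts on biliverdin, rose by 0.33 on the log2 scale (edgeR adjusted p = 0.0257). Its call was lost when control replicate 3 or any 1 HK1-overexpressing library was dropped (highest adjusted p = 0.124). POR and ALAS1 were named for their role, outside the rule and after their values were seen.

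Genes that share xenobiotic receptors with CYP2C moved both ways. Of 18 listed, 14 were tested, 2 rose and 4 fell (42.9% called, beside 8.02% of all genes), with a median log2 change of -0.02. SULT2A1, a steroid sulfotransferase, rose from 88.7 ± 6.35 to 116.3 ± 0.960 CPM (log2 0.39, edgeR adjusted p = 7.77e-04). UGT1A1, which conjugates bilirubin, rose from 9.62 ± 1.19 to 14.7 ± 1.27 CPM (log2 0.61, edgeR adjusted p = 0.00239), and shares exons with other UGT1A genes, so its count is uncertain. GSTA1 and GSTA2, near-identical glutathione transferases whose counts are uncertain, fell by 1.05 and 1.08 on the log2 scale (edgeR adjusted p = 0.00609 and 0.00344). CYP3A4, the usual marker of PXR activity, had 2, 0 and 3 counts in controls and 1, 2 and 5 in overexpressing cells and could not be tested. CYP2B6, the usual marker of CAR activity, had 44, 53 and 49 counts in controls and 41, 45 and 55 in overexpressing cells (log2 -0.27, edgeR adjusted p = 0.451). CYP3A4 and CYP2B6 were named for that role, outside the rule and after their values were seen.

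None of the tested genes on a list of other CYP2 genes was called. Of 12 listed, 6 were tested, with 0 calls by edgeR, DESeq2 or limma-voom, and 0 at an unadjusted edgeR p below 0.05. With 8.02% of all genes called, 0 of 6 is near that share, and nothing about the family is read from it. The lowest p were for CYP2A6, which has near-identical copies (log2 0.42, SE 0.245, edgeR adjusted p = 0.350), and for CYP2J2, an arachidonic acid epoxygenase like CYP2C8, at 7.02 ± 0.507 and 7.90 ± 0.798 CPM (log2 0.17, SE 0.113, edgeR adjusted p = 0.415). In the pathway of fatty acid oxygenation, to which CYP2C8 and CYP2J2 supply epoxides, 13 of 22 genes were tested. Of these, 0 rose and 3 fell (23.1% called, beside 8.02% of all genes), with a median log2 change of -0.07. FABP1, the liver fatty acid binding protein, fell from 44.0 ± 5.26 to 24.6 ± 1.26 CPM (log2 -0.84, edgeR adjusted p = 2.94e-05). CYP4F11 and CYP4F12, omega-hydroxylases, fell by 1.12 and 0.37 on the log2 scale (edgeR adjusted p = 0.00263 and 0.0318). The call of CYP4F12 was lost with library totals, with DESeq2 and when control replicate 3 or any 1 HK1-overexpressing library was dropped (highest adjusted p = 0.170). EPHX2, the soluble hydrolase of these epoxides, named for that role after its values were seen, was at 28.6 ± 1.27 and 28.5 ± 0.944 CPM (log2 -0.01, edgeR adjusted p = 0.969).

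The level of CYP2C8 differed in the opposite direction to most hepatocyte markers. Of 12, 0 rose and 9 fell (75% called, beside 8.02% of all genes), with a median log2 change of -0.52. Between 7 and 10 fell with any 1 library left out. AHSG, fetuin-A, fell by 1.32, APOA2 by 1.00, AFP, alpha-fetoprotein, by 0.57 and ALB, albumin, by 0.53 on the log2 scale (edgeR adjusted p = 1.38e-09, 3.3e-06, 2.37e-06 and 3.26e-06). That CYP2C8 and these markers differ in direction is a comparison of values, and the difference was not tested.

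**Figure D4:**
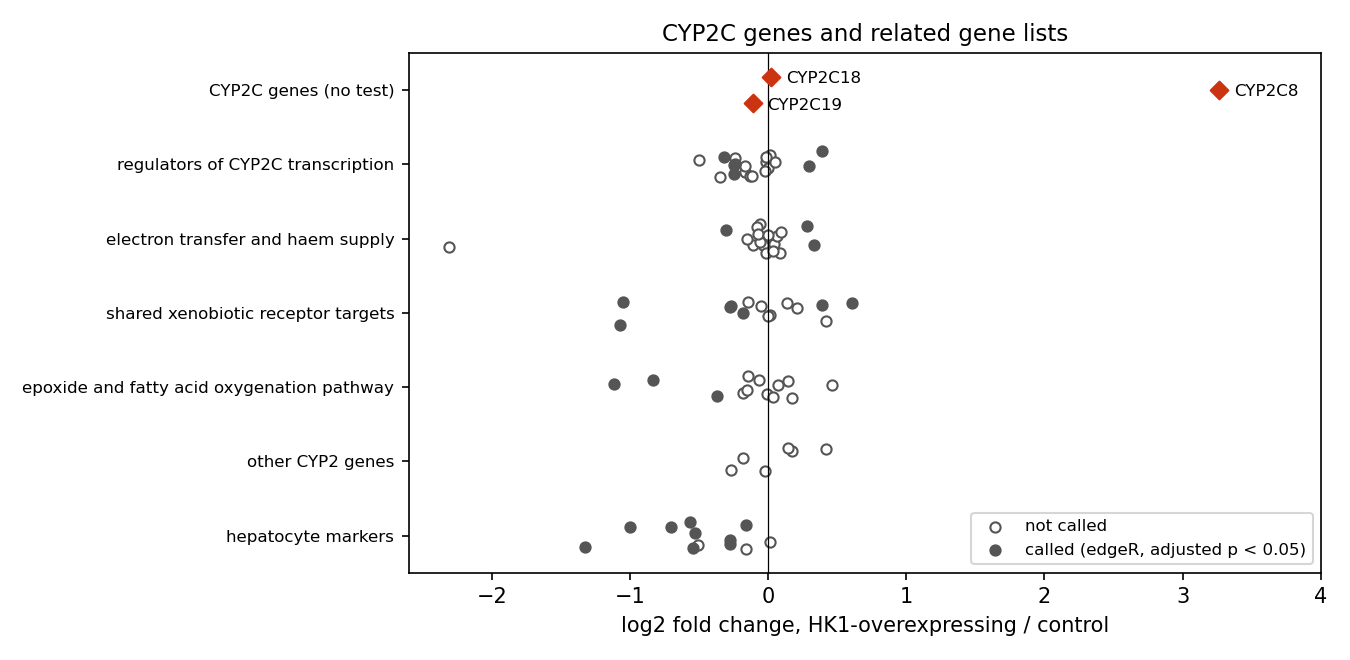
Log2 fold changes of HK1-overexpressing over control (x axis) for the 3 CYP2C genes (red diamonds, no test) and the tested members of 6 related lists (rows), with called genes filled. No listed gene comes near CYP2C8 at 3.26, and the highest of these lists is UGT1A1 at 0.61. The uncalled point at -2.31 is HMOX2, with 25, 4 and 103 counts in controls against 9, 20 and 2 in overexpressing cells.

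By their pattern over the 6 libraries, the 5 genes most like CYP2C8 were all called higher, which follows from how they were picked. CYP2C8 splits by group, so a gene that tracks it closely differs the same way by construction. Likeness was Pearson's r of log2 CPM among 10940 tested genes with a mean of at least 5 CPM, given as a description since libraries of a group share their treatment. The top genes were CEACAM1 (r = 0.998), SCPEP1 (r = 0.997), NTN4 (r = 0.997), APOL1 (r = 0.997) and HK1 itself (r = 0.996), and 522 genes had r of 0.9 or more. Their log2 fold changes were smaller than that of CYP2C8 except for HK1, though this does not hold for differences in CPM. NTN4, a netrin, went from 4.77 ± 0.153 to 10.03 ± 0.219 CPM, and APOL1 from 7.48 ± 0.273 to 13.9 ± 0.291 CPM (SD, n = 3 each). CEACAM1, a cell adhesion molecule, went from 47.8 ± 0.580 to 62.3 ± 1.08 CPM, and SCPEP1, a carboxypeptidase, from 58.4 ± 0.879 to 69.9 ± 0.783 CPM. The call of SCPEP1 was lost when any 1 HK1-overexpressing library was dropped (edgeR adjusted p up to 0.0596).

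The genes most like CYP2C18 and CYP2C19 were uncalled, which again follows from picking them by likeness to genes that hardly differed between groups. For CYP2C18 the likest genes were ZFAND2B (r = 0.980), RPL31P4 (r = 0.972), MOB2 (r = 0.962), KRT8P10 (r = 0.961) and COQ10A (r = 0.957), with 33 genes at 0.9 or more. RPL31P4 and KRT8P10 are pseudogenes whose counts are uncertain. For CYP2C19 they were CCNJ (r = 0.981), NUBPL (r = 0.980), ZMYM1 (r = 0.966), DNAJA1 (r = 0.965) and NUP42 (r = 0.958), with 41 genes at 0.9 or more. All 10 had log2 fold changes between -0.03 and 0.13. Among the members themselves r was 0.06 between CYP2C8 and CYP2C18, -0.12 between CYP2C8 and CYP2C19 and 0.47 between CYP2C18 and CYP2C19, over 6 libraries and at counts low enough that sampling noise weighs on each value.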

How the data were processed

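Counts per gene were analysed for 6 Huh7 libraries (3 control, 3 HK1-overexpressing), grouped and numbered by their titles. Per the file headers, the authors ran featureCounts 1.5.3 with its paired-end option, exons summed by gene name, on GENCODE release 47. The command sets no option for strand, multi-mapping or overlapping genes. Trim Galore, Subread and hg38 are named per the submitters' processing notes. The deposited values are raw counts, not expected or estimated counts, and every one was checked to be a whole number. The other deposited column used is exon length, a size in bases.

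From these, edgeR 4.0.16 (R 4.3.3) was run on all genes passing filterByExpr, with TMM, group as the only term and a robust quasi-likelihood test, Benjamini-Hochberg adjusted over 16734 genes at 0.05. Standard errors are the unshrunken coefficient over the root of the F statistic. The pipeline was tested on simulated data. Alternatives were DESeq2 1.42.0, limma-voom (limma 3.58.1), other scalings and filters, HK1 removed, another prior count, a replicate block and leaving out each library. Libraries of a group differed beyond counting noise (chi-square per degree of freedom 1.58 to 11.4), so no library was merged.

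The members and lists were chosen with earlier results of these data known. Named genes are the members, HK1, tested genes within 1 Mb, up to 4 called genes of smallest p per list (or 2 uncalled where fewer than 2 were called) and the 5 genes of most similar pattern. Genes outside this rule are said to be so, and some genes it names are not reported here.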

Additional observations from a re-analysis of the deposited data

How the results depend on the processing

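The log2 fold change of CYP2C8 kept its direction under all 15 alternatives, was 3.16 to 3.37 with 1 library left out, and was 3.02 with a prior count of 2, which shrinks low counts by construction. Those of CYP2C18 and CYP2C19 ranged from -0.08 to 0.09 and from -0.25 to 0.16 with 1 library left out, so the sign of neither is settled. With 1 library left out, calls numbered 536 to 2257 in all, 0 to 6 among regulators, 1 to 3 for redox partners and haem, 4 to 8 for shared targets, 2 to 4 for fatty acid oxygenation, 0 for other CYP2 genes and 0 to 3 for flanking genes. Calls among regulators numbered 3 with library totals and 3 with DESeq2, and among flanking genes 4 without a filter and 1 with the replicate block, against 6 and 2. With the replicate block, 1074 genes were called against 1342. Same-numbered libraries did not deviate together from their group means (r = 0.00707, 0.0579 and -0.0304). Whether they were prepared as pairs is not given in the labels, and these values cannot decide it. The causes of these shifts were not tested, and fewer libraries were fitted where one was left out. Of 26 called genes covered by the naming rule, 16 were called in every alternative that tested them, and 2 of 25 uncalled ones were called in some. Depth limits CYP2C19 most, at 28 and 30 counts a group, and a mean of at least 1 CPM gave no value for it. It also limits the control level of CYP2C8, at 25 counts in sum.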

Other observations

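The CYP2C pseudogenes in the table held almost no counts. CYP2C58P, a pseudogene between CYP2C19 and CYP2C8, had 1 count in HK1-overexpressing replicate 3 and 0 in the other libraries. CYP2C59P, CYP2C60P, CYP2C61P, CYP2C23P and CYP2C56P had a count of 0 in all 6 libraries; 3 counts, the limit that a 0 leaves, are 0.144 to 0.179 CPM depending on the library.

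Low levels of other P450 genes are given as raw counts only. CYP2E1, the ethanol-inducible P450, had 10, 2 and 10 counts in controls and 9, 7 and 7 in overexpressing cells. CYP3A7, the main fetal P450 of liver, had 4, 3 and 2 and 6, 5 and 7 counts, and CYP2W1, a P450 found in tumours, had 1, 5 and 2 and 5, 3 and 10. These 3 genes were picked after their values were seen, did not pass the filter and were not tested.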
